A study of Mus musculus with 24 samples.

Results

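Astrocytes influence the forming and ripening of synapses through proteins that they release, and 10 genes for such proteins were followed among the 24394 genes of the deposited table. They were taken by name as the table's rows for Chrdl1, for the SPARC family genes Sparc and Sparcl1, for the glypicans Gpc4, Gpc5 and Gpc6, and for the thrombospondins Thbs1, Thbs2, Thbs3 and Thbs4. Bulk RNA-seq was available for astrocytes sorted by FACS out of 4 brain regions of mice: cortex, hippocampus, thalamus and olfactory bulb. For each region 3 libraries carry the label WT (the study's controls) and 3 the label KO (the study's conditional Nfix knockout, NFIXcKO), which makes 24 libraries in 8 groups. The product of Nfix is one of the nuclear factor I (NFI) transcription factors, which act in the development of glia. The Cre driver, the deleted exons, the marker used for sorting, the strain, the age and the sex of the mice are not given in the sources used here. Nothing in the labels states that libraries are from different animals, and p-values therefore measure only the spread between libraries, which may be technical.

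Thrombospondins are large matrix glycoproteins that promote the formation of excitatory synapses through the neuronal calcium channel subunit encoded by Cacna2d1. Sparcl1 (hevin) also promotes excitatory synapses, by linking neurexins to neuroligins across the cleft, and its relative Sparc counteracts it. Glypicans are heparan sulfate proteoglycans held in the membrane by a lipid anchor and released by cleavage; Gpc4 and Gpc6 recruit AMPA-type glutamate receptors to young synapses, whereas Chrdl1, a secreted antagonist of bone morphogenetic proteins, promotes the later switch to receptors that contain the subunit encoded by Gria2.

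Levels are given as normalized reads, meaning read counts per gene after division by 1 size factor per library. The libraries held 2517487 to 25616591 reads, counting the smallest value above 0 of a library as 1 read. In thalamus WT replicate 1 and thalamus KO replicate 3 the reads were not taken as recovered, so their read counts are estimates. In 22 of the libraries 7509 to 11984 genes were above 0. Cortex WT replicate 3 and thalamus KO replicate 3 stood apart with 3871 and 2220 genes above 0, and the main results that rest on them are given with and without them. Hippocampus WT replicates 2 and 3 were unusually alike, since 0 of 8364 genes with at least 50 normalized reads in either were at 0 in the other, against 850 genes for the next closest pair of libraries. Summed over 9 astrocyte markers the libraries reached 8828 to 85775 CPM (counts scaled to the same library total), lowest in thalamus KO replicate 3 and cortex WT replicate 3, where oligodendrocyte markers reached 76163 and 51082 CPM. By region the median astrocyte sum was 34706 CPM in the thalamus, 40150 in the olfactory bulb, 74287 in the hippocampus and 77881 in the cortex. For oligodendrocyte markers it was 10740.5, 3773, 3256 and 4975 CPM in that order. The part of these differences in the region results below was not tested. Nfix itself went against the labels, since its KO mean exceeded its WT mean in each region. It held 4693 ± 1347 normalized reads in KO against 2448 ± 96.8 in WT in the olfactory bulb and 6730 ± 1253 against 4512 ± 608 in the hippocampus, where the groups did not overlap. It held 5026 ± 748 against 3786 ± 557 in the cortex and 6947 ± 4403 against 3137 ± 440 in the thalamus, where they did (SD, n = 3 each). A value per gene does not separate deleted from remaining exons, so the labels could not be checked, and WT and KO below mean the libraries so labelled.

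The 10 genes differed widely in level. Scaled to exon length, which allows levels of different genes to be compared, Sparcl1 was highest in 24 of 24 libraries, Sparc came next in 20 and Gpc5 after it in 16. The median over the libraries was 67871 normalized reads per kb of exon for Sparcl1, 3647 for Sparc, 1061 for Gpc5, 598 for Chrdl1, 137 for Gpc6 and 7.69 for Gpc4. The thrombospondins had medians of 4.70 (Thbs2), 1.60 (Thbs3), 0.0931 (Thbs1) and 0 (Thbs4) per kb. Sparcl1 alone took 75.4 to 100% of the reads of the 10 genes in a library (median 86.7%). The spread between libraries went the other way, with a standard deviation of 19.8% of the mean for Sparcl1 and 385% for Thbs1 over the 24 libraries.

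**Figure D1:**
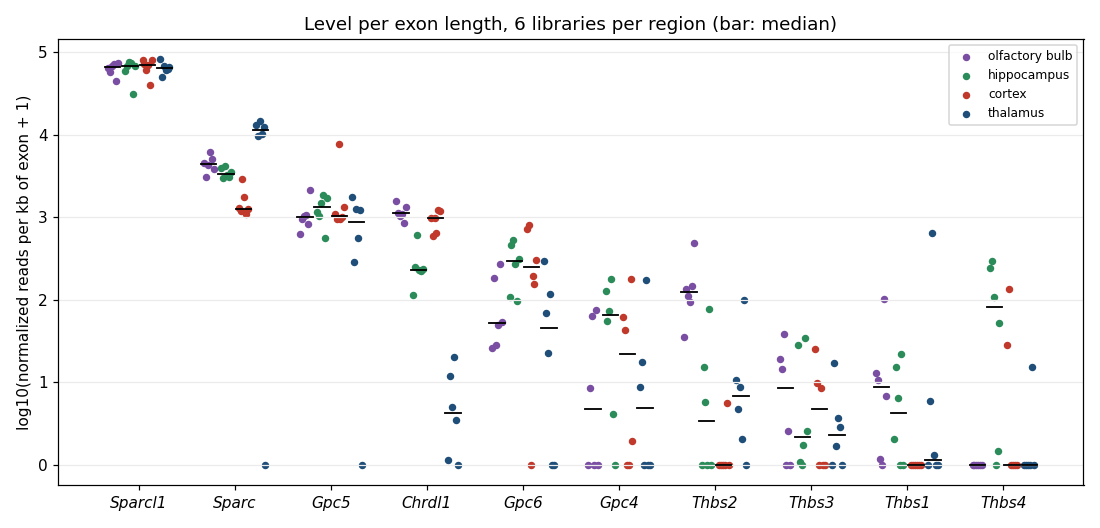
Level of each gene per kb of exon in every library, as log10(normalized reads per kb + 1), with genes ordered by their median, 1 point per library, colours for the 4 regions and a bar at the median of the 6 libraries of a region. Sparcl1 lies above all other genes in 24 of 24 libraries, and the 4 thrombospondins and Gpc4 fall to 0 in many.

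Some of the genes differed between regions. In the 12 WT libraries, Chrdl1 and Sparc, 2 of the 10 genes tested, passed an F test over the 4 regions in limma (adjusted p under 0.05), while 0.252% of the 11105 genes tested did so (6.79% at an unadjusted p under 0.05). Thbs2 and Thbs4 were also under the unadjusted limit. Over both genotypes, with genotype as a covariate, Chrdl1 and Thbs2 passed, 2 of 10, against 1.43% of 12477 genes (10.3% at an unadjusted p under 0.05). Here Gpc6 and Thbs4 were also under the unadjusted limit. Without the libraries with few detected genes Chrdl1, Sparc, Gpc6 and Thbs4 passed in WT, against 1.27% of 11047 genes. Over both genotypes Chrdl1, Sparc, Gpc6 and Thbs2 then passed, against 2.95% of 12424 genes. The median span between the highest and the lowest region was 3.02 on the log2(value + 10) scale for the 10 genes and 2.33 for all genes in WT, and 2.29 and 1.64 over both genotypes. That scale understates the change of genes with low values.

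Sparcl1, the most even of the 10 genes, had a mean of 189310 ± 37485 normalized reads (SD, n = 24). It ranged from 131046 to 216959 in the olfactory bulb (median 193268), from 90311 to 224598 in the hippocampus (median 199439), from 118110 to 238247 in the cortex (median 207322) and from 147211 to 240581 in the thalamus (median 187863). The 4 ranges overlapped throughout, and the highest library held 2.66 times the lowest. The region means spanned 0.11 on the log2 scale over both genotypes (limma, adjusted p = 0.999) and 0.16 in WT (limma, adjusted p = 0.957). The gene Sparcl1 occupies 104079111 to 104113733 of chromosome 5 (GRCm38, minus strand) and has 12 merged exons. It kept 194488 normalized reads in thalamus KO replicate 3, the library in which each of the other 9 genes was listed at 0.

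Sparc was highest in the thalamus and lowest in the cortex. The WT libraries of the thalamus held 50214, 36762 and 55833 normalized reads, and the KO libraries 38343, 47136 and 0. The cortex held 4881, 4501 and 10874 in WT and 6745, 4195 and 4718 in KO. Leaving out the library at 0, the lowest of the other 5 thalamus libraries was still above every library of any other region. The olfactory bulb held 17268, 11513 and 16068 in WT and 23338, 19391 and 14352 in KO. The hippocampus held 14763, 11183 and 15800 in WT and 12162, 11709 and 13279 in KO. These regions lay between and overlapped each other. All of their libraries were above the 6 cortex libraries, of which the nearest was cortex WT replicate 3, a library with few detected genes. In thalamus KO replicate 3 Sparc was listed at 0, which allows up to 29.7 normalized reads. That floor of 3 reads takes the smallest value above 0 of this library as 1 read and covers counting error only.

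In WT the thalamus exceeded the cortex by 2.92 on the log2 scale (SE 0.44, limma, adjusted p = 5.03e-05, against 0.117% of all genes called), and the F test over regions gave an adjusted p of 0.000249 (limma). The call held in 12 of 12 fits that left out 1 library (span 2.68 to 3.32, limma, adjusted p from 9.01e-11 to 0.0211), but not with DESeq2 on recovered reads (span 2.92, adjusted p = 0.312). Over both genotypes the span was 1.56 in the 24 libraries, which did not pass (limma, adjusted p = 0.879). Both count tests called it (span 3.06, adjusted p = 2.34e-06 with edgeR, and span 2.96, adjusted p = 2.51e-09 with DESeq2). They used the 22 libraries with recovered reads, which leave out thalamus WT replicate 1 and thalamus KO replicate 3, the library at 0. In limma the span without thalamus KO replicate 3 was 2.99 (adjusted p = 4.02e-09). Without both libraries with few detected genes, which leaves another set of 22, it was 3.20 (limma, adjusted p = 2.19e-17), against 2.95% of 12424 genes called. In those 22 libraries the thalamus mean of 45657 ± 8049 normalized reads (SD, n = 5) was 9.12 times the cortex mean of 5008 ± 1004 (n = 5) and 2.69 times the olfactory bulb mean of 16988 ± 4097 (n = 6). In them Sparc passed in limma for 5 of the 6 pairs of regions. The thalamus was above the cortex by 3.20 (SE 0.24, adjusted p = 1.70e-18, against 0.789% of all genes called), above the hippocampus by 1.79 (SE 0.22, adjusted p = 2.30e-08, against 0.531%) and above the olfactory bulb by 1.45 (SE 0.22, adjusted p = 7.50e-06, against 1.89%). The cortex was below the olfactory bulb (log2 difference -1.75, SE 0.22, limma, adjusted p = 4.37e-08, against 1.49%) and below the hippocampus (-1.41, SE 0.22, limma, adjusted p = 0.000206), where Sparc was the 1 gene called (0.00805%). The hippocampus did not differ from the olfactory bulb beyond the spread (-0.35, SE 0.21, limma, adjusted p = 0.653). The KO libraries alone, without thalamus KO replicate 3, gave 3.05 between thalamus and cortex (SE 0.41, limma, adjusted p = 5.07e-10, against 0.121% of all genes), 1.78 between thalamus and hippocampus (adjusted p = 0.0148, against 0.196%) and -1.87 between cortex and olfactory bulb (adjusted p = 0.000375, against 0.336%). With that library the 12 KO libraries gave -0.96 between thalamus and cortex (SE 2.75, limma, adjusted p = 0.923).

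Sparc is also made by endothelial cells, mural cells, microglia and fibroblasts, and bulk values cannot tell a larger number of expressing cells from more RNA per cell. All 7 fibroblast markers were above 0 in both thalamus groups and in both hippocampus groups. Their summed level was 480 to 1748 CPM in the thalamus against 0.616 to 980 CPM in the other regions. Their part in the result was not tested. Thalamus KO replicate 3 held 1714 CPM of fibroblast markers and 0 reads of Sparc. With 2220 genes above 0, and Sparcl1 the only gene of the set among them, that library cannot show which cells make Sparc. Endothelial markers reached 67.6 to 761 CPM in the thalamus and 1.76 to 772 CPM elsewhere, and microglial markers 65.6 to 3365 CPM and 17.9 to 2621 CPM, so both overlapped between regions. Mural markers, at 33.7 to 247 CPM in the thalamus and 0 to 1783 CPM elsewhere, overlapped as well.

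The gene Sparc occupies 55394500 to 55423183 of chromosome 11 (GRCm38, minus strand) and has 12 merged exons. Its RefSeq promoter window is shown because Sparc was the abundant gene with the clearest order of regions. The window runs from 250 bases before to 50 after the RefSeq start, at chr11:55420031-55420330 on the minus strand (GRCm38.p6), and this start lies inside the span annotated above. It is in lower case throughout because it holds no NFI core motif (TTGGCA on either strand, the other strand reading TGCCAA).
Sparc: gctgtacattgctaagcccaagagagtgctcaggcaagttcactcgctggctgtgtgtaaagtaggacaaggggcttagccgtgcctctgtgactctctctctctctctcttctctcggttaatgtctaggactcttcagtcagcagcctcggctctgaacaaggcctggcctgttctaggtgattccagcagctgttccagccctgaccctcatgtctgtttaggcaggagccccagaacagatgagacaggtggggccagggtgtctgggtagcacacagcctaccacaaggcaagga

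Chrdl1 was lowest in the thalamus and had the widest span of the 10 genes between regions on the log2(value + 10) scale in limma. In the olfactory bulb it held 10538, 7608 and 6949 normalized reads in WT and 7383, 5672 and 8925 in KO. In the cortex it held 6543, 3965 and 6687 in WT and 4389, 8373 and 7959 in KO. These regions were both high and overlapped each other. The hippocampus held 759, 1671 and 4116 in WT and 1536, 1521 and 1576 in KO, and its highest library, WT replicate 3, was the one that reached the cortex range. The thalamus held 0.993 (the smallest value above 0 of that library, taken as 1 read), 73.2 and 27.2 in WT and 130, 16.9 and 0 in KO. Every thalamus library was below every library of the other regions, and 4 of 6 were above the floor of 3 reads. Astrocyte markers also had their lowest regional median in the thalamus, and their part in this result was not tested.

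Over the 24 libraries Chrdl1 had the smallest p of the 12477 genes tested over the regions (span 7.87 on the log2 scale, limma, adjusted p = 9.73e-09). In WT alone the span was 7.99 (limma, adjusted p = 5.37e-06), the second smallest p of 11105 genes. The thalamus was lower than the olfactory bulb (log2 difference -7.87, SE 0.96, limma, adjusted p = 3.36e-08, against 1.17% of all genes called), lower than the cortex (-7.53, SE 0.96, adjusted p = 1.68e-07, against 0.128%) and lower than the hippocampus (-5.64, SE 0.96, adjusted p = 0.00103, against 0.0721%). These 3 differences had the same sign and passed in 24 of 24 fits that each left out 1 library. As plain means, the olfactory bulb (7846 ± 1686, SD, n = 6) was 190 times and the cortex (6319 ± 1809) 153 times the thalamus (41.4 ± 50.9). Thalamus KO replicate 1 weighs on these ratios, and without it the thalamus mean was 23.7 ± 29.9 (n = 5) and the ratios 332 and 267. The olfactory bulb and the cortex did not differ beyond their spread (log2 difference -0.34, SE 0.96, limma, adjusted p = 0.968). The log2 difference of the hippocampus from the olfactory bulb was -2.23, which missed the threshold in 24 libraries (limma, adjusted p = 0.505) and passed in the 22 without the libraries with few detected genes (limma, adjusted p = 0.00898, against 1.47%). In KO libraries alone the thalamus was again below the olfactory bulb (-7.75, SE 1.55, limma, adjusted p = 0.0120, against 0.0279% of all genes) and below the cortex (-7.63, SE 1.55, limma, adjusted p = 0.0171, against 0.0093%). Without thalamus KO replicate 3 these were -6.88 (adjusted p = 3.44e-13, against 0.326%) and -6.76 (adjusted p = 1.14e-12), and -4.66 against the hippocampus (limma, adjusted p = 9.04e-05). In WT alone the thalamus was lower than the olfactory bulb (-7.99, SE 1.12, limma, adjusted p = 1.08e-05, against 0.126%), the cortex (-7.43, adjusted p = 5.03e-05) and the hippocampus (-5.75, adjusted p = 0.00770, against 0.045%). The gene Chrdl1 occupies 143285674 to 143394262 of chromosome X (GRCm38, minus strand) and has 12 merged exons. No other gene shares bases with its exons.

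Across the 22 libraries, Chrdl1 and Sparc had a Pearson correlation of -0.77, and over all 24 it was 0.09, the difference being the thalamus library at 0 for both and cortex WT replicate 3. The points share region, since the thalamus supplies the low Chrdl1 and high Sparc end.

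**Figure D2:**
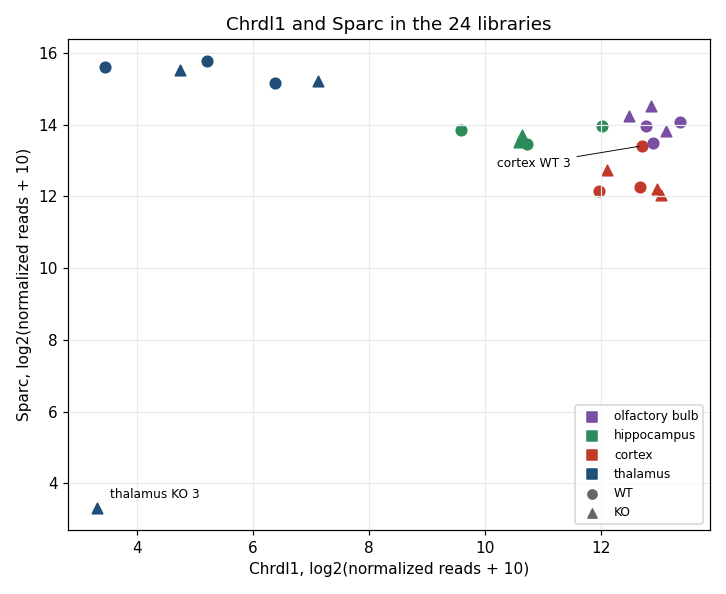
Chrdl1 (horizontal axis) against Sparc (vertical axis), both as log2(normalized reads + 10), 1 point per library, with colour for region and shape for genotype. Thalamus libraries lie at the upper left, apart from thalamus KO replicate 3, which is at 0 for both genes, and cortex libraries lie at the right, below those of the olfactory bulb.

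Among the glypicans, Gpc5 was the abundant one and did not separate the regions. It held 2778 to 9543 normalized reads in the olfactory bulb (median 4463), 2459 to 8255 in the hippocampus (median 5920), 4229 to 34754 in the cortex (median 4648) and 0 to 7924 in the thalamus (median 3950). Both extremes came from the libraries with few detected genes, 34754 from cortex WT replicate 3 and 0 from thalamus KO replicate 3. The span over regions was 2.22 over both genotypes (limma, adjusted p = 0.601) and 1.23 in WT (limma, adjusted p = 0.807), and 0.50 and 0.51 without the libraries with few detected genes (limma, adjusted p = 0.873 and 0.894). Gpc5 lies on chromosome 14 at 115092215 to 116525179 on the plus strand, and 107 of its exon bases are shared with the antisense gene Gm20713. Whether counting used strand is not stated, and reads of such gene pairs cannot be told apart.

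Gpc6, also on chromosome 14 (116925315 to 117976544, plus strand), was lower per kb than Gpc5. The cortex held 4648, 5220 and 0 normalized reads in WT and 1243, 1002 and 1954 in KO. The hippocampus held 688, 2962 and 3431 in WT and 1755, 614 and 2024 in KO. The olfactory bulb held 160, 1186 and 175 in WT and 315, 1742 and 345 in KO, and the thalamus 1891, 444 and 138 in WT and 753, 0 and 0 in KO. Apart from cortex WT replicate 3, cortex libraries held at least 1002, and the other regions overlapped them. In the full set Gpc6 did not pass (span 2.52 in WT, limma, adjusted p = 0.851; span 3.44 over both genotypes, limma, adjusted p = 0.446). Without the libraries with few detected genes it passed in WT (3.88, limma, adjusted p = 0.0485, against 1.27% of 11047 genes). That call is close to the threshold and rests on 2 cortex WT libraries. Over both genotypes it passed as well (3.37, limma, adjusted p = 0.0118, against 2.95% of 12424 genes). There the thalamus was below the cortex (-3.37, SE 0.84, limma, adjusted p = 0.0234, against 0.789%).

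Gpc4, which recruits the AMPA receptor subunit encoded by Gria1, was scarce. It was at 0 in 9 of 24 libraries and did not exceed 473 normalized reads in any. The hippocampus held 340, 145 and 193 in WT and 473, 8.42 and 0 in KO. Every region had a library at 0 and one at 196 or more, so that the regions overlapped (span 1.71 over both genotypes, limma, adjusted p = 0.843). The gene occupies 52053021 to 52165252 of chromosome X (minus strand).

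The thrombospondins were detected in some libraries and at 0 in others of the same group. Thbs2, a trimeric thrombospondin made by young astrocytes, was the one of the 4 that passed between regions in limma when all libraries were used. It held 244, 945 and 767 normalized reads in the olfactory bulb of WT and 653, 1034 and 3390 in KO. The cortex held 0, 0 and 0 in WT and 0, 32.5 and 0 in KO. The hippocampus held 0, 100 and 33.3 in WT and 0, 533 and 0 in KO, and the thalamus 67.6, 26.3 and 55.3 in WT and 7.51, 682 and 0 in KO. All 6 olfactory bulb libraries were above all 6 cortex libraries, while 1 hippocampus and 1 thalamus library, both KO replicate 2, reached the olfactory bulb range. Over both genotypes the span was 6.10 (limma, adjusted p = 0.00584), and it held in 24 of 24 fits without 1 library (5.73 to 6.43, limma, adjusted p from 0.00238 to 0.0284). The cortex was below the olfactory bulb (log2 difference -6.10, SE 1.22, limma, adjusted p = 0.00151, against 0.946% of all genes called), as was the hippocampus (-4.56, SE 1.22, limma, adjusted p = 0.0466, against 0.753%). The latter call, close to the threshold, was lost in 14 of 24 fits without 1 library (limma, adjusted p up to 0.163), with TMM (0.0522) and upper-quartile factors (0.0605) and with hippocampus WT replicates 2 and 3 averaged (0.0672). In the 12 WT libraries the span of 5.84 did not pass (limma, adjusted p = 0.445). Neuroblast markers summed to 17.6 to 271 CPM in the olfactory bulb and 0 to 131 CPM elsewhere. Fibroblast markers summed to 5.34 to 155 CPM in the olfactory bulb and to 0.616 to 1748 CPM elsewhere. The part of either in the Thbs2 difference was not tested.

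Thbs4, a pentameric thrombospondin, had its highest values in the WT hippocampus. It held 790, 966 and 357 normalized reads there and 0, 1.53 and 170 in hippocampus KO. In the olfactory bulb it was at 0 in 6 of 6 libraries, where 3 reads would be 2.21 to 3.39 normalized reads. The cortex held 91.1, 445 and 0 in WT and 0 in 3 of 3 KO libraries, and the thalamus was at 0 in 5 of 6 libraries, with KO replicate 2 the exception. The WT hippocampus was thus above all other libraries but 1 in the cortex, which reached its range. The region span in WT was 6.04 (limma, adjusted p = 0.154), and 6.04 with an adjusted p of 0.0285 (limma) without cortex WT replicate 3. Over both genotypes it was 3.75 (limma, adjusted p = 0.128).

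Thbs1, the other trimeric member, was at 0 in 12 of 24 libraries, among them 6 of 6 of the cortex. Its highest value, 3912 normalized reads, came from thalamus WT replicate 3 alone, and the other thalamus libraries held 0 to 30.4. The olfactory bulb held 73.5, 59.0 and 1.13 in WT and 0, 610 and 35.4 in KO, and the hippocampus 0 to 128 over its 6 libraries. Thbs3 was at 0 in 8 of 24 libraries and reached at most 181 normalized reads. Neither passed over regions in limma (adjusted p from 0.699 to 0.949). On edgeR's fit Thbs1 passed in WT (adjusted p = 0.0345) and over both genotypes (adjusted p = 0.0463), with spans that rest on the cortex at 0. Thbs1 shares 208 exon bases with the antisense gene Gm29233, and Thbs3 shares 318 with Mtx1, which lies antisense to it.

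Promoter windows were matched for 6 of the 10 genes (Sparc, Gpc4, Gpc5, Thbs2, Thbs3 and Thbs4). The NFI core motif occurred once each in Thbs2 and Thbs3 and not in the other 4. Of 32851 promoter windows of the same length, 14.1% held it, and 0.0365% held the full palindrome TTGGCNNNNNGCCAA, which was in none of the 6. The windows of Thbs2 (chr17:14694213-14694512, minus strand) and Thbs3 (chr3:89214930-89215229, plus strand) are shown from RefSeq (GRCm38.p6) because they hold the letters that the NFI family is known to bind. Capitals mark the core motif, which starts 185 bases before the start of Thbs2 and 97 before that of Thbs3. A match of letters is a description and not a bound site.
Thbs2: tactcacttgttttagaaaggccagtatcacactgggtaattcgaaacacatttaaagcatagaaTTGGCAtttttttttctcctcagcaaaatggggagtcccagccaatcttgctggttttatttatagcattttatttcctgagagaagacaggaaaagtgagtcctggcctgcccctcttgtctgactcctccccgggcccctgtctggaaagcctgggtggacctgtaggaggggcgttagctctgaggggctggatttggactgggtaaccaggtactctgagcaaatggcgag
Thbs3: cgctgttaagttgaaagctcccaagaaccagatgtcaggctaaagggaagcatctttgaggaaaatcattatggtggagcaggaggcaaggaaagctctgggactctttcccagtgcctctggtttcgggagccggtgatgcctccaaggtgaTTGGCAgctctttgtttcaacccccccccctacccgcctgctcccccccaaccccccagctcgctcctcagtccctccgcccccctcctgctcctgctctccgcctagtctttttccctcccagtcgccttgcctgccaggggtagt

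**Figure D3:**
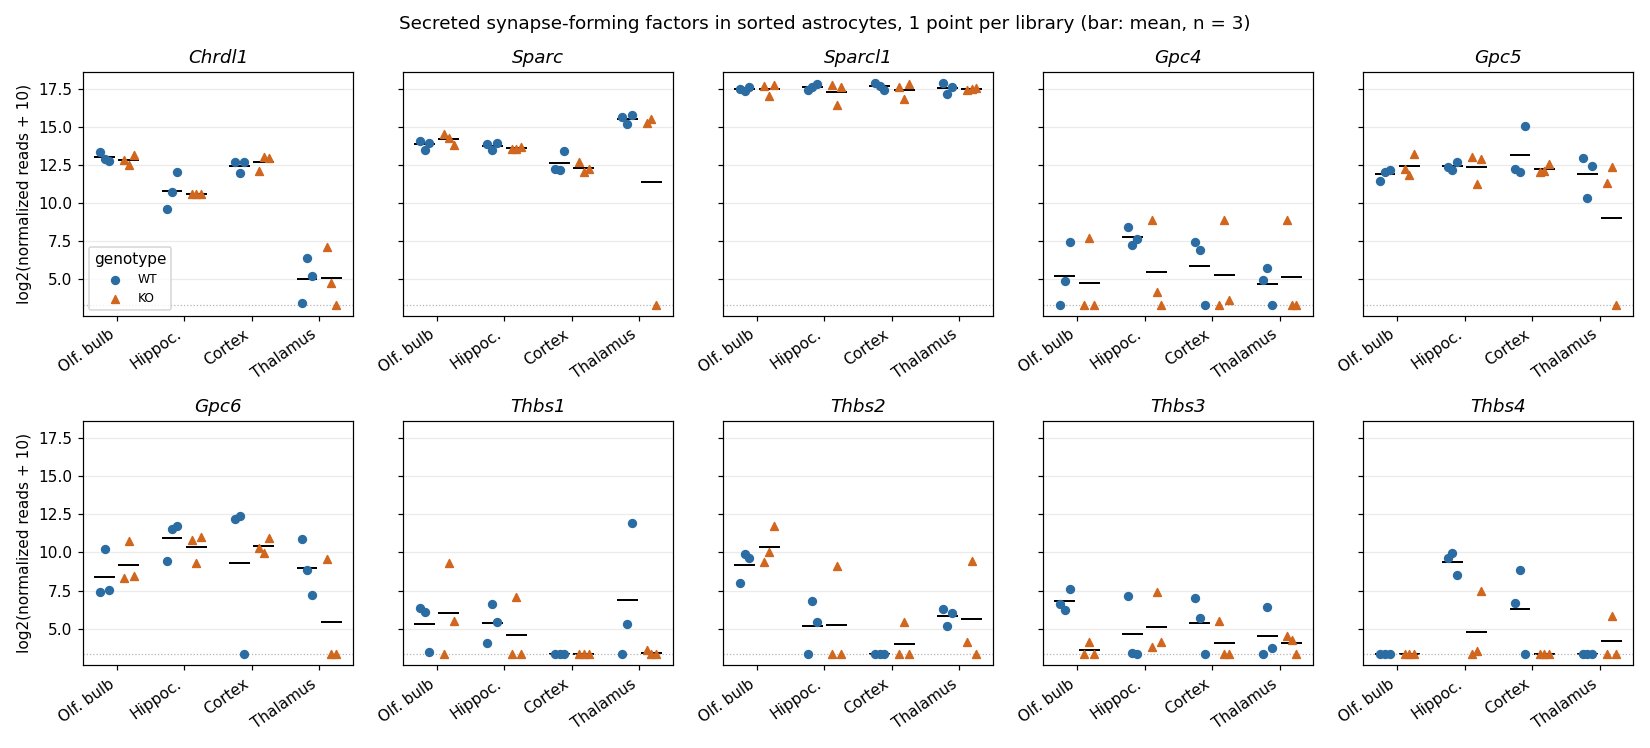
Level of each of the 10 genes in every library, as log2(normalized reads + 10), 1 panel per gene, with circles for WT, triangles for KO, a bar at the mean of the 3 libraries and a dotted line at a value of 0. Chrdl1 drops in the thalamus, Sparc is highest there apart from 1 library at 0, Sparcl1 is level, and the thrombospondins and Gpc4 scatter down to 0.

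The comparison of KO with WT sets the libraries so labelled against each other. Since the loss of Nfix could not be checked, it cannot show whether these factors depend on Nfix. None of the tested genes passed in limma in any region. The count was 0 of 9 for the olfactory bulb (0% of all 9385 genes called), 0 of 9 for the hippocampus (0.0109% of 9213), 0 of 7 for the cortex (0% of 8376) and 0 of 7 for the thalamus (0% of 7675). Averaged over the regions, 0 of 10 passed (0% of 12477 genes), and 0 of 10 passed the F test of whether the difference varied between regions (0% of 12477). At an unadjusted p under 0.05, Thbs4 was the single gene of the 10 when all libraries were used, in the hippocampus, in the average and between regions. The share of all genes under that limit was 6.27% for hippocampus, 4.01% for olfactory bulb, 3.82% for thalamus, 2.44% for cortex, 4.86% for the average and 4.58% between regions. Without cortex WT replicate 3, Gpc6 and Sparcl1 in the cortex were also under it (limma, unadjusted p = 0.00549 and 0.0363, adjusted p = 0.997 for both), as were 3.41% of the 8180 genes then tested. Their log2 differences were -1.86 (SE 0.67) and -0.34 (SE 0.16). Without thalamus KO replicate 3, 0 of 7 were under it in the thalamus (4.6% of all genes), and without both libraries Thbs4 remained the single gene in the average (6.42%) and between regions (5.28%). The edgeR test on recovered reads called 0 of the 10 in these comparisons, and DESeq2 called Thbs2 in the average. Its cortex WT libraries were at 0 in 3 of 3, so DESeq2 has no finite estimate for it and none is given. DESeq2 called 956 genes there, against 0 in limma.

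Thbs4 in the hippocampus had a mean of 57.1 ± 97.6 normalized reads in KO and of 704 ± 313 in WT (SD, n = 3 each). Its 3 KO libraries lay below its 3 WT libraries, as the groups did without overlap for 12.1% of the 9213 genes tested there in either direction. The log2 difference was -4.58 (SE 1.60, 95% interval -7.78 to -1.39, limma, adjusted p = 0.698). Leaving out 1 library gave -5.94 to -3.86 (limma, adjusted p from 0.517 to 0.997). In the average over regions it was -1.67 (SE 0.71, limma, adjusted p = 0.971). Within the hippocampus the log2 differences were below 0 for 10 of 10 oligodendrocyte markers (median -1.42), 6 of 7 tested microglial markers (median -1.32), 6 of 7 tested endothelial markers (median -1.14) and 4 of 4 tested fibroblast markers out of 7 (median -2.21), with a median of -0.16 over all genes and 0 markers called. Mean sums in KO and WT were 3601 ± 3487 and 3977 ± 1252.5 CPM for oligodendrocyte markers (SD, n = 3 each). They were 497 ± 658 and 516 ± 266 CPM for microglial and 284 ± 360 and 355 ± 372 CPM for endothelial markers. Fibroblast markers summed to 0.616, 980 and 884 CPM in KO and to 335, 135 and 319 CPM in WT. In the other lists, 6 of 9 astrocyte, 3 of 5 mural and 1 of 2 neuron markers tested were below 0. So were 2 of 3 oligodendrocyte precursor, 2 of 3 neuroblast and 2 of 2 ependymal markers. The part of these cells in the result was not tested.

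Thbs3 in the olfactory bulb held 87.0, 64.9 and 181 normalized reads in WT and 0, 7.65 and 0 in KO. The groups did not overlap, which was so for 9.06% of the 9385 genes tested. The log2 difference was -3.21 (SE 1.64, 95% interval -6.42 to 0.01, limma, adjusted p = 1.00). In the cortex, 7.61% of genes and 0 of the 7 members tested had groups that did not overlap, and in the thalamus 11.2% and 0 of 7. Thbs4 in the cortex, which was too low to be tested, was above 0 in 2 of 3 WT libraries and in 0 of 3 KO libraries.

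The precision differed widely between the genes. For Sparcl1 the difference between KO and WT was -0.03 for olfactory bulb (95% interval -0.31 to 0.25), -0.33 for hippocampus (-1.25 to 0.59), -0.22 for cortex (-0.66 to 0.22) and -0.07 for thalamus (-0.61 to 0.48), on the log2 scale. Chrdl1 differed by -0.19 for olfactory bulb (95% interval -0.93 to 0.55), -0.17 for hippocampus (-1.46 to 1.12), 0.25 for cortex (-1.24 to 1.74) and 0.05 for thalamus (-3.29 to 3.38). Without the library with few detected genes Sparcl1 was at -0.34 (SE 0.16) for cortex and -0.11 (SE 0.19) for thalamus, and Chrdl1 at 0.38 (SE 0.47) and 0.92 (SE 1.94). For Sparc the difference was 0.34 in the olfactory bulb (-0.24 to 0.92) and -0.15 in the hippocampus (-0.78 to 0.47). In the thalamus Sparc differed by -4.16 with an interval from -15.33 to 7.01, and without KO replicate 3 by -0.14 (SE 0.30). Gpc5 and Gpc6 in the thalamus, at -2.91 and -3.57, were -0.06 (SE 0.71) and -2.53 (SE 2.06) without that library. Thrombospondin and Gpc4 intervals were several log2 units wide in every region in which they could be tested.

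For the tested genes of the set, the median log2 difference was 0.34 in the olfactory bulb (5 above 0, 4 below) against -0.04 for all genes, -0.33 in the hippocampus (1 above, 8 below) against -0.16, -0.28 in the cortex (2 above, 5 below) against 0.49, and -0.20 in the thalamus (2 above, 5 below) against -1.31. Without the libraries with few detected genes the medians of the set were -0.34 in the cortex (3 above, 4 below) against -0.29 for all genes, and -0.06 in the thalamus (3 above, 4 below) against -0.18. With all libraries and TMM factors the medians of all genes in the cortex and thalamus were 0.63 and -1.38 and with upper-quartile factors 0.54 and -1.52, and in the cortex both scalings turned the differences of Sparc and Sparcl1 to above 0. In the average over regions 1 of 10 lay above 0 and 9 below, with a median of -0.77 against -0.17 for all genes. Without the libraries with few detected genes 4 lay above 0 and 6 below, with a median of -0.51 against -0.14. Of all genes tested, 60.8% lay above 0 for cortex, 48.4% for olfactory bulb, 44.8% for hippocampus, 25.1% for thalamus and 40.3% for the average.

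**Figure D4:**
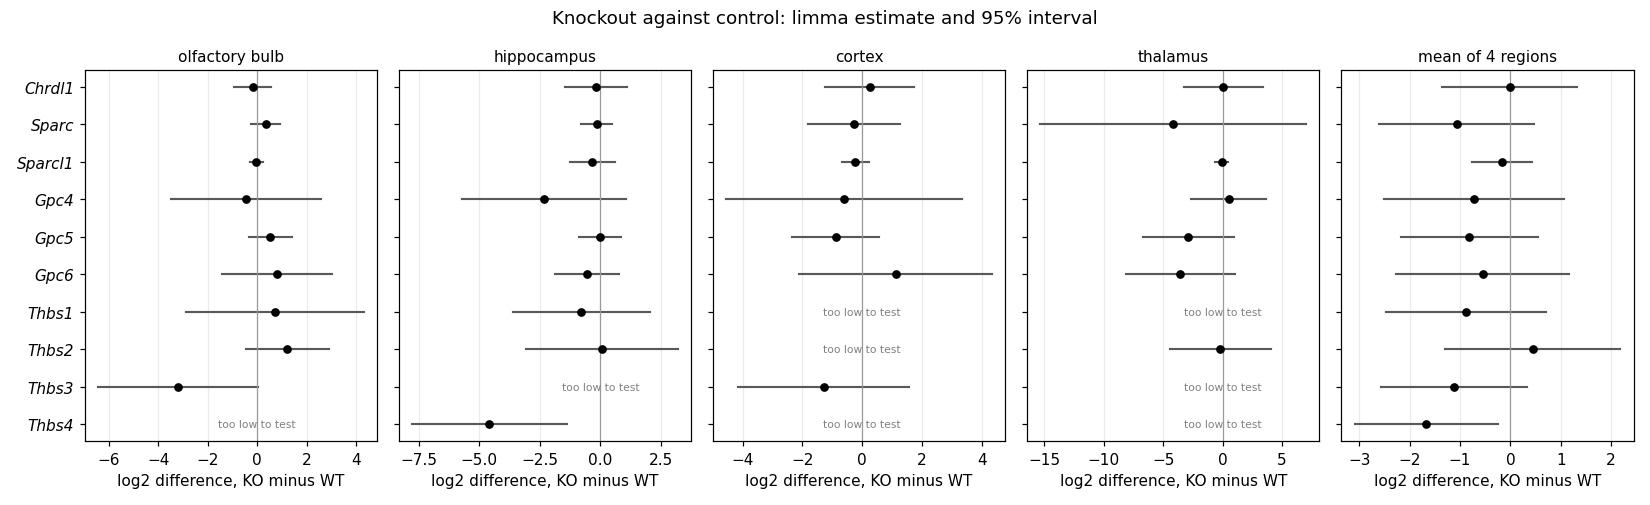
Log2 difference of KO minus WT for each gene in each region and averaged over the 4 regions (horizontal axis, on the log2(value + 10) scale, with a range of its own in each panel), as the limma estimate (point) and its 95% interval (line). Intervals are narrow for Sparcl1 (-0.31 to 0.25 in the olfactory bulb) and wide for Sparc in the thalamus (-15.33 to 7.01), and genes marked as too low had fewer than 3 libraries at 10 normalized reads or more.

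Genes that act with these factors were counted in 4 lists, 64 genes in all. Of 14 family relatives 8 could be tested in the average over regions, of 24 receptors and partners 23, of 14 other synapse regulators of astrocytes 14, and of 12 genes of heparan sulfate synthesis and glypican release 11. None passed between KO and WT in limma in any region or in the average. In the average the medians were -0.03, -0.19, -0.09 and -0.32 in that order, against -0.17 for all genes. In the olfactory bulb the smallest p of their lists belonged to Ncan, the proteoglycan neurocan, at a log2 difference of 0.59 (SE 0.18), to Lrrtm4, a postsynaptic partner of glypicans, at -5.37 (SE 1.82), and to Smoc1, a SPARC relative, at 3.03 (SE 1.04), each with an adjusted p of 1.00 in limma. Ncan passed without olfactory bulb KO replicate 2 (0.86, limma, adjusted p = 0.00110), and DESeq2 called Lrrtm4 (-6.35) and Smoc1 (3.68), both with an adjusted p of 0.00869. Averaged over regions, Ndst1, which sulfates heparan sulfate chains, was at -2.25 (SE 0.74, limma, adjusted p = 0.971), and DESeq2 called it (-2.14, adjusted p = 0.00125) among the 956 genes it called there.

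Between regions, 2 of 21 receptors and partners and 1 of 14 other synapse regulators passed in WT, and 0 of 6 relatives and 0 of 10 heparan sulfate genes. Gria1, the AMPA receptor subunit that Gpc4 recruits, held 11408 ± 1185 normalized reads in the olfactory bulb and 5405 ± 924 in the thalamus, against 327 ± 141 in the hippocampus and 473 ± 559 in the cortex (SD, n = 3 WT libraries each). Its span was 6.05 (limma, adjusted p = 0.000809), but the call was lost without the filter on low values (limma, adjusted p = 0.147). Lrrtm4 held 647 ± 111 in the olfactory bulb of WT, at most 13.2 in any WT library of the other regions, and 8.95 ± 14.8 in the olfactory bulb of KO (limma, adjusted p = 0.0452 over the WT regions, and 0.0530 with the replicate number as a block). Its call in WT was also lost with a pseudocount of 1 (limma, adjusted p = 0.102), with edgeR (0.0531), with hippocampus WT replicates 2 and 3 averaged (0.145) and on leaving out any single WT library other than hippocampus replicate 1 or cortex replicate 3 (0.0716 to 0.156). Ptn, which encodes the secreted growth factor pleiotrophin, was lowest in the thalamus, at 5299 ± 2703 against 12963 ± 299 in the hippocampus and 27903 ± 6527 in the olfactory bulb of WT (span 2.48, limma, adjusted p = 0.00224). The call of Ptn was lost with no filter (limma, adjusted p = 0.228), upper-quartile factors (0.159), edgeR (0.0703) and DESeq2 (0.432). Over both genotypes Gria1, Lrrtm4 and the matrix glycoprotein gene Tnr passed (limma, adjusted p = 0.00757, 0.0193 and 0.0134). There the call of Gria1 was lost with a pseudocount of 1 (limma, adjusted p = 0.0778) and with no filter (0.156). That of Lrrtm4 was lost with no filter (limma, adjusted p = 0.0585), with edgeR (0.0901) and without any 1 of the olfactory bulb WT libraries (0.0558 to 0.0650). That of Tnr was lost with edgeR (adjusted p = 0.0599) and without olfactory bulb WT replicate 2 (limma, 0.0508). Without the libraries with few detected genes Ptn, Sulf1 (a heparan sulfate sulfatase) and Hs2st1 (a heparan sulfate sulfotransferase) also passed over both genotypes (limma, adjusted p = 2.17e-07, 0.0426 and 0.0259), against 0.0627, 0.168 and 0.176 with all libraries. Ptn passed there with edgeR too (adjusted p = 0.0361), Hs2st1 with DESeq2 (0.000989), and Tnr passed in WT with DESeq2 (0.00954).

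The genes most like each factor over the libraries were ranked by the Pearson correlation of log2(value + 10) among 8198 genes with a mean of at least 100 normalized reads. The points share region, depth and the libraries with few detected genes. For Chrdl1 they included Dmtf1 (0.89 over 24 libraries, 0.86 over the 22 left when those with few detected genes are dropped) and Adam23 (0.88 and 0.86). For Thbs2 they were Col12a1 (0.88 and 0.87), Fxyd6 (0.83 and 0.82) and Gad2 (0.83 and 0.83). For Sparc the first was Jam2 (0.93), which had a correlation of 0.58 without those libraries. Sparcl1, with little spread of its own, reached 0.55 with Neo1 over 24 libraries and 0.88 with Ntrk2 over 22. No other member of the set was among the 3 genes most like Chrdl1, Sparc, Sparcl1 or Thbs2 over the 24 libraries.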

How the data were processed

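Total RNA of sorted cells (10 ng) was made into libraries with 8-bp single indices, per the labels' protocols. Tools listed, without their roles, are STAR 2.5.0a, DESeq2 1.20.0 (with R 3.5.2), MultiQC 0.9 and FastQC 0.10.1, with build mm10, all per the submitters' processing notes. How reads were counted, on which annotation and with what strand setting is not given in the sources used here. The deposited table holds a normalized signal per gene and library. In each column 100% of the authors' values were whole multiples of 1 step (within 0.001), so they are reads divided by a size factor. Count tests used the 22 columns whose reads were taken as recovered, without thalamus WT replicate 1 and thalamus KO replicate 3, whose steps lie close to 1 and 10. Fold changes on the log2(value + 10) scale understate the change of low genes. Of 24421 entries, 27 carried dates in place of gene names and were left out. The number of columns of no sample was 0.

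The values were tested as log2(value + 10) with limma 3.58.1 (trend and robust options, R 4.3.3), with genes at 10 or more in at least 3 libraries of the fit and Benjamini-Hochberg adjustment over all genes tested. Each region was fitted alone for KO against WT, and all 24 libraries for the average, its variation between regions and the regions. The fit was also run on simulated counts with the same dispersion for all genes. These did not model the loss of genes in the libraries with few detected genes, so that run cannot show how the fit handles such libraries. Alternatives were a pseudocount of 1, no filter, TMM and upper-quartile factors, edgeR 4.0.16 and DESeq2 1.42.0 on recovered reads, the replicate number as a block, hippocampus WT replicates 2 and 3 averaged, and libraries left out. Pairs of regions and fits in KO libraries alone were added after seeing the data. Within a region, same-numbered WT and KO libraries did not deviate together (0 of 12 correlations over 0.1), so the numbers were not taken as pairs of genotypes. Whether same-numbered libraries of different regions came from the same animal is not stated and was not checked. The main fits over regions treated them as independent.

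The members and the lists were chosen with earlier results of these data known. All 10 members are named. From 4 lists of related genes, the genes that passed and otherwise the 2 with the smallest p were eligible to be named, and for each member with a mean of at least 100 the 3 genes of highest correlation, of which some are not reported here. Exon lengths and positions are from GENCODE vM21 (GRCm38), and promoters from RefSeq (GRCm38.p6). Floors of 3 reads cover counting error only, whereas the 95% intervals of log2 differences come from the spread between libraries. Depth ranged from 2517487 to 25616591 reads, the lower end being that of thalamus KO replicate 3, whose reads were not taken as recovered.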

Additional observations from a re-analysis of the deposited data

How the results depend on the processing

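Gpc4 and the thrombospondins were each at 0 in 8 to 16 of the 24 libraries, and the libraries with few detected genes belonged to the cortex and the thalamus. Over the members, no filter and the replicate block changed 0 of 72 results each. The block could not be read as pairing; with it the hippocampus had 3 genes called in place of 1. DESeq2 has no finite estimate for genes with a group at 0; of these it called Thbs1, Thbs2, Thbs4 and Lrrtm4 over regions in WT, Thbs2 and Tnr over both genotypes, and Thbs2 in the average. The cause of the changes below was not tested.

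The count tests left out thalamus WT replicate 1 and thalamus KO replicate 3, so for the thalamus and for fits over regions the libraries differed as well as the method. Counts of genes called moved as follows. With DESeq2 they were 60 for the olfactory bulb (0 in limma), 119 for hippocampus (1), 23 for cortex (0), 36 for thalamus (0), 956 in the average (0), 7 for variation between regions (0) and 179 for regions in WT (28). With edgeR they were 0 in the hippocampus, 6 in the cortex, 1 for variation and 81 for regions in WT. The hippocampus had 0 with a pseudocount of 1, 0 with no filter and 2 with upper-quartile factors. Variation between regions gave 9 with no filter and 1 without the libraries with few detected genes. Regions in WT gave 18 with the hippocampus pair averaged and 140 when both libraries of few detected genes were omitted, and regions over both genotypes then 367 (178 in the main analysis). Leaving out 1 library gave 0 to 2 for the olfactory bulb, 1 to 7 for hippocampus, 0 to 0 for cortex, 0 to 1 for thalamus, 0 to 0 in the average and for variation, 14 to 140 for regions in WT and 130 to 232 over both genotypes.

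KO minus WT changed sign, on the log2 scale, in these cases. In the hippocampus Chrdl1 was 0.056 with the pair averaged, Gpc5 0.17 with edgeR and 0.17 with DESeq2, and Thbs2 -0.90 with a pseudocount of 1, -0.018 with TMM and -0.12 with upper-quartile factors. In the cortex Sparc was 0.040 with TMM, 0.21 with upper-quartile factors, 0.075 with edgeR and 0.12 when those with few detected genes were omitted, and Sparcl1 0.10, 0.26 and 0.067 with the first 3 of these. Cortex Gpc4 was 0.82 with edgeR and 0.81 with DESeq2, and Gpc6 -1.19 and -1.16. Omitting the libraries with few detected genes, cortex Gpc5 was 0.092, Gpc6 -1.86, Spock1 0.021, Nrcam -0.22 and Megf10 -0.057. In the thalamus a pseudocount of 1 gave Chrdl1 -0.28 and Gpc4 -0.37. The count tests there lacked WT replicate 1 and KO replicate 3, so the libraries differed as well as the method. For the thalamus edgeR and DESeq2 gave Sparcl1 0.072 and 0.10, Gpc5 0.19 and 0.26, Gpc6 0.48 and 0.43, Thbs2 3.06 and 3.17, Spock1 2.09 and 2.20, Ncan 0.54 and 0.53, and Bcan 0.21 and 0.22. Thalamus Thbs2 was 0.95 and Ncan 0.23 without the libraries with few detected genes. In the average Chrdl1 was 0.055 with TMM, 0.035 with upper-quartile factors, 0.14 with edgeR, 0.040 with DESeq2, 0.041 with the pair averaged and 0.23 without the libraries with few detected genes. In the average edgeR gave Sparc 0.040, Gpc4 0.95, Gpc5 0.041 and Ptn 0.32, DESeq2 gave Gpc4 0.94 and Ptn 0.16, and leaving out the libraries with few detected genes gave Sparc 0.042, Gpc5 0.14 and Ptn 0.32. That last setting turned Sparc to 1.45 for thalamus against olfactory bulb and 1.79 for thalamus against hippocampus.

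Leaving out 1 library turned the sign within these ranges. In the average they were -0.27 to 0.20 for Chrdl1, -1.17 to 0.14 for Ptn and -0.038 to 0.73 for Thbs2. In the olfactory bulb they were -1.42 to 0.27 for Gpc4, -0.16 to 0.20 for Sparcl1 and -0.91 to 2.07 for Thbs1. In the hippocampus they were -0.76 to 0.45 for Chrdl1, -0.31 to 0.56 for Gpc5, -0.56 to 0.073 for Sparcl1 and -0.87 to 1.02 for Thbs2. For cortex they were -1.88 to 0.39 for Gpc4, -1.42 to 0.092 for Gpc5, -1.86 to 2.65 for Gpc6, -0.51 to 0.12 for Sparc, -0.42 to 0.071 for Sparcl1, -0.057 to 4.35 for Megf10, -0.22 to 3.36 for Nrcam and -4.64 to 0.021 for Spock1. For thalamus they were -0.98 to 0.92 for Chrdl1, -0.19 to 1.42 for Gpc4, -0.26 to 0.10 for Sparcl1, -2.10 to 0.95 for Thbs2 and -4.86 to 0.23 for Ncan. Between regions they were -0.79 to 1.78 (thalamus against hippocampus) and -1.13 to 1.44 (thalamus against olfactory bulb) for Sparc, and -0.22 to 1.29 for Thbs2 (thalamus against hippocampus).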
